A study of Mus musculus with 18 samples.

Results

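A set of 10 skeletal muscle genes was read in dorsal spinal tissue, namely Acta1, Ckm, Myh1, Myh2, Myh4, Myh7, Mylpf, Tnnt3, Tnnc2 and Actn3. They were chosen by their FPKM levels in these tables, because transcripts of muscle fibres were present in tissue taken from the spinal cord, so their levels are a description and no test is given on them. Of the 10 genes, 9 had a row in all 3 deposited tables and 18380 gene names had one in all. Each of the 9 had a single row, and the level of Myh2 was not analysed here.

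The samples were C57BL/6 mice (C57BL/6N in the study's methods) aged 3 months, 3 per group and 18 in all, and the labels name no mutant allele. Each mouse received an intraspinal injection of rAAV (recombinant adeno-associated virus) encoding LacZ (the control), the wild-type form of HDAC4 (named HDAC4 wt) or HDAC4 3SA, a mutant of the histone deacetylase that cannot leave the nucleus. Saline or CFA (Complete Freund's adjuvant, which inflames the tissue) was injected into the hindpaw, and lumbar dorsal spinal tissue was taken 24 h later. A laminectomy, the opening of the vertebral arch beneath the back muscles, preceded the rAAV injection in mice of all 6 groups. The promoter that drives the HDAC4 and LacZ transgenes is not given in the sources used here.

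The tables give 1 FPKM value (a level corrected for the length of the exons and for the reads mapped in the library) per locus and group, estimated over the 3 mice together. The spread between mice and the read counts are not in the values used here, and of the depth the study's methods give a minimum but no value per library. No SD is therefore set beside a value, and the authors' own test results for CFA against saline were not used. Saline and CFA of a vector stand in 1 table, whereas the 3 vectors were processed as 3 tables, so levels set across vectors compare separately processed tables. The median ratio of loci above 5 FPKM moved by at most 0.02 on the log2 scale in any comparison made here. The tissue carried the markers of spinal cord in every group: the summed FPKM of 6 neuronal genes, led by Snap25, Nefl and Tubb3, was 1508 to 2339, that of 7 dorsal horn neuron genes, led by Slc17a6, Slc32a1 and Tac1, 168 to 261 and that of 5 astrocyte genes, led by Gfap, Aqp4 and Slc1a2, 843 to 1617. The 4 oligodendrocyte genes read, led by Mobp, Mag and Mog, summed to 1182 to 1609. The LacZ groups stood apart from both HDAC4 vectors in the neuronal and astrocyte lists, with neuronal sums of 2339 and 2298 against 1508 to 1702 and astrocyte sums of 853 and 843 against 1294 to 1617. The part of this in the vector comparisons of the muscle genes was not tested. Hdac4 itself was at 7.41 and 7.72 FPKM in the LacZ groups, 10.1 and 10.8 in the HDAC4 wt groups and 8.86 and 8.81 in the HDAC4 3SA groups.

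Muscle fibres shorten when myosin heads of the thick filament pull on actin of the thin filament, and the troponin complex makes this pull depend on calcium. Fast and slow fibres build the same machine from different genes, so that fast troponin and myosin genes have slow counterparts, whereas skeletal alpha-actin and muscle creatine kinase serve both. The spinal cord itself holds no skeletal muscle fibres, which lie outside the vertebral column. Class IIa histone deacetylases such as HDAC4 are known to bind MEF2 factors, which drive many muscle genes.

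The start regions of the genes show which of these regulatory letters the members carry. The 4 stretches printed here are the 250 bases before the annotated start of the gene, read 5′ to 3′ on the gene's strand from RefSeq on GRCm38.p6. They belong to the actin gene Acta1, the 2 fast myosin genes Myh4 and Myh1 and the slow myosin gene Myh7, and are shown because the first 3 hold the matches described next and the last is the slow counterpart. Capitals mark matches to the CArG box (CC, 6 bases of A or T, then GG), the site of serum response factor, and to the MEF2 site.
Acta1, chr8:123894776-123895025, minus strand: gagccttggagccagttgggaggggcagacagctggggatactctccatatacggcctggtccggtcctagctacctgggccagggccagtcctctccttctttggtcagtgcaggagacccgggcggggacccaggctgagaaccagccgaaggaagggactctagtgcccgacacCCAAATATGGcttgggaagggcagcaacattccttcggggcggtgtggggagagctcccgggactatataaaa
Myh4, chr11:67237562-67237811, plus strand: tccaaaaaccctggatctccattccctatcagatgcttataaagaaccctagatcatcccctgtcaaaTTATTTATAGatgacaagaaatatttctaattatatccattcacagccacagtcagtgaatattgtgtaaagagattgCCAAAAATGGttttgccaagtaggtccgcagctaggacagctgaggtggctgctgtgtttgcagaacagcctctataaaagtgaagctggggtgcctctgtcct
Myh1, chr11:67199852-67200101, plus strand: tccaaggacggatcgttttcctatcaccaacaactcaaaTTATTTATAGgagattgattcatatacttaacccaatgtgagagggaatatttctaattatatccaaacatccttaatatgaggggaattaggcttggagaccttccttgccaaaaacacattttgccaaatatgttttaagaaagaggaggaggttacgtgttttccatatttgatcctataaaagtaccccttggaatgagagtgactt
Myh7, chr14:54994550-54994799, minus strand: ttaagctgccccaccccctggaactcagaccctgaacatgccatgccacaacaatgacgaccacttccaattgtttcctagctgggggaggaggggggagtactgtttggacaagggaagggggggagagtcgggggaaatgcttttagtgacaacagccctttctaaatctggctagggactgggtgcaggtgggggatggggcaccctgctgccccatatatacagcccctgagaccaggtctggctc

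Of the 10 genes, 8 had an entry in the RefSeq promoter table, the others being Tnnt3 and Actn3. A CArG box was found in 2 of the 8, ending 63 bases before the start of Acta1 and 94 bases before that of Myh4, and in 1.47% of all 32851 mouse start regions of the same length. A MEF2 site was found in 2, ending 172 bases before the start of Myh4 and 201 bases before that of Myh1, and in 2.92% of all. The E-box (CANNTG), the site of the myogenic factors, was found in 6 of the 8 and in 66.2% of all, and both strands were searched for each motif. The Myh7 stretch, taken at the first of its start sites, held E-boxes but no match to the other motifs. The same held for Ckm, Mylpf and Tnnc2, although Ckm and Tnnc2 varied far more between groups than Myh7. Whether the motifs bear on the levels was not tested.

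The rows for the myosin genes are less specific than the others, because the genes arose by duplication and share long runs of sequence. Of the positions at which a read of 50 bases could start in the annotated transcript, 26.7% in Myh1, 18.9% in Myh4 and 22.2% in Myh7 occurred without a mismatch in another gene. For Myh1 the main partner was Myh2, with 1186 such positions, and for Myh7 it was Myh6, the cardiac alpha-myosin, with 1373. The longest run that Myh4 shares with Myh1 has 161 bases of coding sequence, and the longest it shares with Myh2 has 146. They are shown because a read from within them belongs to none of the genes alone.
Myh4 and Myh1: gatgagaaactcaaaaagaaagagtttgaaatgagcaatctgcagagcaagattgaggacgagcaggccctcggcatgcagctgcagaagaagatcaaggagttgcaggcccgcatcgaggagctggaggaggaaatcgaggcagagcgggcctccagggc
Myh4 and Myh2: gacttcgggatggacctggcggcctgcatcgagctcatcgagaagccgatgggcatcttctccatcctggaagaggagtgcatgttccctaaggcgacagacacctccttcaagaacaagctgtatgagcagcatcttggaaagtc

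By contrast, Ckm, Mylpf, Tnnt3 and Tnnc2 shared no such position with any other gene, and Actn3 and Acta1 shared 0.07% and 2.22% of theirs. The row for Acta1 lies on chromosome 8 at 123891760 to 123894741 on GRCm38 and covers 99.3% of the annotated exon bases. That for Myh1 (chromosome 11, 67215853 to 67224342) covers only 30.6% of the exon bases of that gene, and that for Ckm (chromosome 7, 19411029 to 19421682) covers 54.2%, so their levels describe those portions. That for Myh7 (chromosome 14, 54970682 to 54988912) covers 79.9% and does not reach the start whose stretch is printed above. The row for Mylpf (chromosome 7, 127208890 to 127232964) runs on into Sept1, which lies on the opposite strand and has a row with the same place. Sept1 was at 1.14, 1.70, 4.06, 4.64, 2.82 and 4.02 FPKM in the order LacZ saline, LacZ CFA, HDAC4 wt saline, HDAC4 wt CFA, HDAC4 3SA saline and HDAC4 3SA CFA, whereas Mylpf was lowest in the HDAC4 wt groups. All further lists of 6 values follow this order of groups.

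Acta1, which encodes the actin of the skeletal muscle thin filament, was at 3.94, 8.94, 1.495, 0.387, 12.5 and 9.74 FPKM. Its level was highest in HDAC4 3SA saline and lowest in HDAC4 wt CFA, 32.3-fold apart. Both HDAC4 wt groups lay below every other group, and both HDAC4 3SA groups lay above every other group. The order from low to high was HDAC4 wt CFA, HDAC4 wt saline, LacZ saline, LacZ CFA, HDAC4 3SA CFA and HDAC4 3SA saline, and which neighbours in it differ beyond the spread between mice cannot be told from pooled values. Among 11637 genes with a single row and a mean of at least 0.5 FPKM over the 6 groups, 1.58% varied as much as Acta1 or more. In bulk tissue, fewer muscle fibres in a sample and less RNA per fibre cannot be told apart.

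Ckm, the muscle creatine kinase that regenerates ATP at the sarcomere, was at 4.78, 10.3, 1.21, 0.0688, 14.5 and 15.1 FPKM. It had the order of Acta1 except that the HDAC4 3SA groups changed places, and in HDAC4 wt CFA it fell further below the other groups. The brain-type creatine kinase Ckb, the counterpart outside muscle, was at 607 to 773 FPKM in the 6 groups, and the ratio of Ckm to Ckb ran from 0.0001 to 0.0239 over the 6 groups.

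The troponin genes followed Acta1 closely. Tnnt3, the fast troponin T that ties the complex to tropomyosin, was at 4.75, 9.50, 1.59, 0.270, 15.5 and 11.1 FPKM. Tnnc2, the fast troponin C that binds calcium, was at 2.43, 5.95, 0.496, 0.0825, 9.46 and 6.60 FPKM. Both had the same order of groups as Acta1. The slow counterparts did not: Tnnt1 lay between 0.268 and 0.561 FPKM in all groups and Tnnc1 between 1.81 and 2.64.

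Mylpf and Actn3 moved in the same direction over a narrower range. Mylpf, the fast regulatory light chain of myosin, was at 3.13, 4.37, 2.13, 1.45, 8.11 and 7.70 FPKM. Actn3, the alpha-actinin of the Z-disc in fast fibres, was at 1.17, 1.89, 0.697, 0.485, 2.38 and 1.70 FPKM. The HDAC4 wt groups were the lowest for both genes. For Mylpf the HDAC4 3SA groups were the highest, while for Actn3 the LacZ CFA group lay between them.

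The myosin heavy chain genes, which encode the motor itself, did not share 1 pattern. Myh4, the motor of the fastest fibres, was at 0.889, 2.82, 0.190, 0.00841, 4.48 and 2.69 FPKM. Myh1, a further fast motor, was at 0.0873, 0.281, 0, 0.0661, 0.0975 and 0.230 FPKM and stayed below 0.5 in every group. It did not follow Myh4: in HDAC4 3SA saline it was 1.12-fold the LacZ saline level, against 5.04-fold for Myh4. Myh4 spanned 534-fold, the widest fold among the members, because its level in HDAC4 wt CFA was close to 0. With 0.1 FPKM added, Ckm spanned the widest range, 6.50 on the log2 scale against 5.40 for Myh4.

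Myh7, the motor of slow fibres and of the heart, was at 4.73, 5.25, 5.15, 4.24, 5.15 and 3.76 FPKM. No group stood apart, and the highest value was 1.39-fold the lowest. Of the 11637 genes, 41.1% varied as much or more. In the HDAC4 wt CFA group Myh7 was at 11.0 times the level of Acta1, whereas in the HDAC4 3SA CFA group it was at 0.386 times that level. Of the summed FPKM of Myh1, Myh4 and Myh7, Myh7 made up 82.9% and 62.8% in the LacZ groups, 96.4% and 98.3% in the HDAC4 wt groups and 52.9% and 56.3% in the HDAC4 3SA groups.

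**Figure D1:**
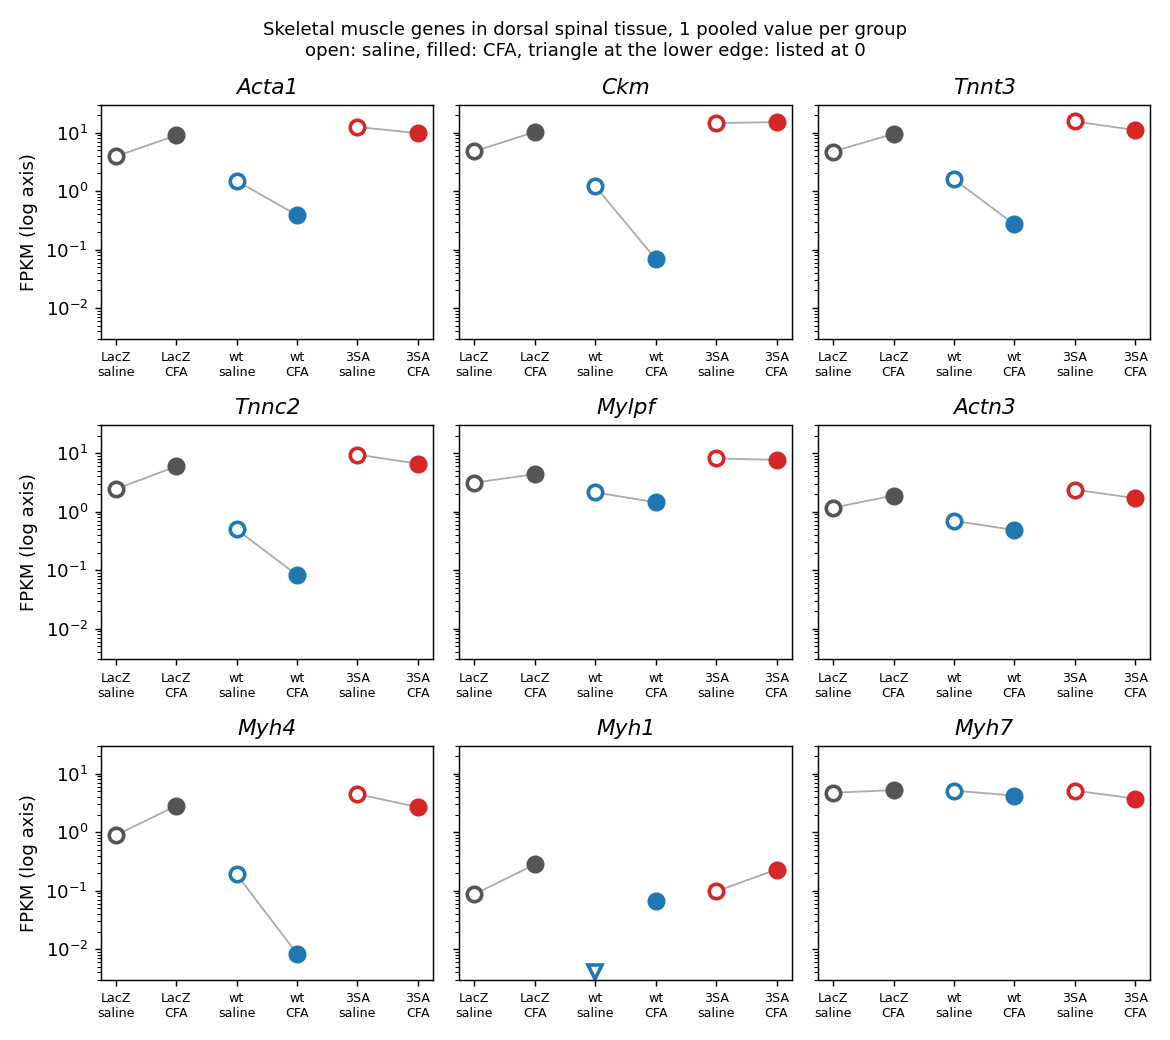
FPKM (log axis) of 9 muscle genes in the 6 groups, with 1 point per group estimated over 3 mice, open for saline and filled for CFA; grey lines join the groups of 1 vector, and a triangle marks a value listed at 0. Acta1 ran from 0.387 to 12.5 FPKM and the fast fibre genes had the HDAC4 wt groups at or near the bottom, whereas Myh7 stayed between 3.76 and 5.25 FPKM.

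The comparison of CFA with saline within a vector asked how hindpaw inflammation alters the spinal transcriptome. In LacZ-expressing mice the muscle genes were higher after CFA: Acta1 was 2.27-fold, Ckm 2.16-fold, Tnnc2 2.45-fold, Tnnt3 2-fold, Actn3 1.62-fold, Mylpf 1.40-fold and Myh4 3.18-fold the saline level. Myh7 was at 1.11-fold. All 9 genes with a row were above the saline value, with a median log2 fold change of 1.11. To count genes, a locus was called at 2-fold or more with 0.1 FPKM added to both values and a mean of at least 0.5 FPKM. Under this rule 4 of the 8 members that reached the mean were called higher (Acta1, Ckm, Myh4 and Tnnc2), beside 1.32% of all 21440 loci, and 0 were called lower, beside 1.3%. Tnnt3 fell just short, being at 2-fold before the constant was added. The median log2 fold change of these 8, constant included, was 1.04 against 0.000813 over all such loci.

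In HDAC4 wt-expressing mice these genes were lower after CFA. Acta1 was at 0.259, Ckm at 0.0567, Tnnt3 at 0.170, Tnnc2 at 0.166 and Myh4 at 0.0443 of the saline level, while Mylpf, Actn3 and Myh7 were at 0.681, 0.696 and 0.823 of it. The saline levels were already low, so the larger folds rest on values below 1.6 FPKM. Of the 6 members that reached a mean of 0.5 FPKM, 3 were called lower (Acta1, Ckm and Tnnt3), beside 1.88% of loci, and 0 were called higher, beside 2.86%. These 3 reached the mean only through the saline group, where they were high, so the count is no support for a difference. The median log2 fold change of the 8 members with a level above 0 in both groups was -2.25. It was -1.42 over 9 members with 0.1 FPKM added and -0.35 with 1 FPKM added. Myh1 was listed at 0 in HDAC4 wt saline and at 0.0661 FPKM after CFA.

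In HDAC4 3SA-expressing mice the changes were small. Acta1 was at 0.779, Tnnt3 at 0.712, Tnnc2 at 0.698, Actn3 at 0.717, Myh7 at 0.731, Myh4 at 0.601 and Mylpf at 0.949 of the saline level, and Ckm was at 1.04-fold. Of the 8 members that reached 0.5 FPKM, 7 were below the saline value. None of these 8 was called: 0 were higher, beside 3.94% of loci, and 0 lower, beside 1.67%. Myh1, below the minimum level, was 2.36-fold the saline value. The median log2 fold change over 9 members was -0.45. For Acta1, Tnnt3, Tnnc2, Actn3, Mylpf, Myh4 and Myh7 the value after CFA was above saline in LacZ and below it in both HDAC4 vectors, but the difference between vectors could not be tested.

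**Figure D2:**
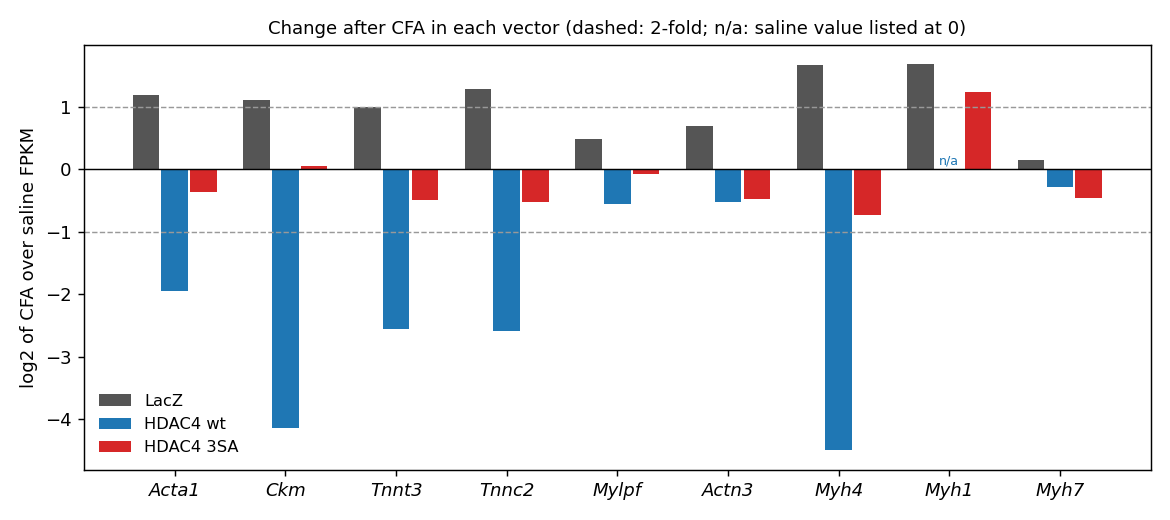
Log2 of the CFA over the saline FPKM for each gene (bars from 0) in LacZ (grey), HDAC4 wt (blue) and HDAC4 3SA (red); dashed lines mark 2-fold and n/a a saline value listed at 0. All 9 bars of LacZ are above 0, from 0.15 for Myh7 to 1.69 for Myh1, whereas the 8 bars of HDAC4 wt are below 0 and reach -4.50 for Myh4.

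Between vectors, the groups given saline already differed. Compared with LacZ saline, HDAC4 wt saline held Acta1 at 0.380, Ckm at 0.254 and Tnnc2 at 0.205 of the level. Of the 8 members that reached 0.5 FPKM, 5 were called lower (Acta1, Ckm, Myh4, Tnnt3 and Tnnc2), beside 1.07% of the 11548 single-row genes compared, and 0 higher, beside 7.78%. HDAC4 3SA saline held Acta1 at 3.18-fold, Ckm at 3.04-fold and Myh4 at 5.04-fold the LacZ level. Here 6 of 8 were called higher, beside 6.04% of genes, and 0 lower, beside 0.785%. Against HDAC4 wt saline, HDAC4 3SA saline had 7 of 8 higher, every one but Myh7, beside 0.936% of genes, and 0 lower, beside 1.13%. Myh4 (0.190 FPKM) and Tnnc2 (0.496 FPKM) were below 0.5 FPKM in HDAC4 wt saline and entered both counts that use this group only through the group where they were high. These comparisons share their groups: a high value in 1 group enters each comparison that uses it.

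After CFA, Acta1 in HDAC4 wt was at 0.0433 and Ckm at 0.00668 of the LacZ level, log2 fold changes of -4.53 and -7.23. With 1 FPKM added to both values these became -2.84 and -3.40, since the levels in HDAC4 wt CFA were close to 0. The median log2 fold change of HDAC4 3SA over HDAC4 wt was 3.18 in saline and 4.65 in CFA, but 2.20 and 1.87 with 1 FPKM added, so whether the distance was wider after CFA depends on the constant. Of 8 members, 7 were called lower, beside 0.775% of genes, and 0 higher, beside 8.35%, with Myh7 at 0.808 as the exception. Of these 7, Mylpf alone was above 0.5 FPKM in both groups, and the others reached the mean only through LacZ CFA, so this count too is no support. HDAC4 3SA CFA lay nearer to LacZ CFA: Acta1 was 1.09-fold, Tnnt3 1.16-fold, Ckm 1.47-fold and Mylpf 1.76-fold the LacZ level, while Myh4 was at 0.954, Actn3 at 0.902 and Myh7 at 0.717 of it. None of 8 was called there: 0 were higher, beside 8.72% of genes, and 0 lower, beside 1.01%. Against HDAC4 wt CFA, 7 of 8 were higher in HDAC4 3SA CFA, beside 1.34% of genes, and 0 lower, beside 1.22%, with Acta1 at 25.2-fold and Tnnt3 at 41.0-fold. Here too 6 of the 7, all but Mylpf, reached the mean only through HDAC4 3SA CFA, and the count is no support.

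Whether a single quantity, such as the amount of muscle in a sample, describes all these genes was examined by the pattern that the members share over the 6 groups. On the log2 scale with 0.1 FPKM added, 1 pattern held 97.7% of the members' variation around their own means, and the next held 1.36%. This pattern placed HDAC4 wt CFA lowest and HDAC4 3SA saline highest. It held 99.9% of the variation of Acta1, 99.7% of that of Tnnc2, 99.5% of that of Tnnt3, 99.0% of that of Myh4, 98.6% of that of Ckm, 96.8% of that of Actn3 and 90.3% of that of Mylpf. It held 42.5% of that of Myh1 and 1.80% of that of Myh7.

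The pooled share says little about the slow motor, because a gene counts by how far it varies. Ckm alone held 25.1% of the variation and Myh7 held 0.137%. With each member given equal weight the first pattern held 81.4%, and without the HDAC4 wt groups it held 89.2%, or 75.0% with both changes. These 3 settings were chosen after the values were seen.

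Genes that rise and fall together need not do so in proportion. For genes that change in proportion, the ratio of a pair is the same in every group. The ratio of Tnnt3 to Acta1 came closest, at 1.21, 1.06, 1.06, 0.697, 1.24 and 1.13, a 1.78-fold range. That of Tnnc2 spanned 3.55-fold, that of Actn3 7.17-fold, that of Mylpf 7.67-fold, that of Ckm 8.73-fold, that of Myh4 16.5-fold and that of Myh7 28.4-fold. That of Myh1, which was listed at 0 in 1 group, spanned 21.9-fold over the other 5. The HDAC4 wt CFA group, where Acta1 was lowest, was at an extreme of each of these 8 ratios. In that group Ckm, Tnnt3, Tnnc2 and Myh4 were low and Mylpf, Actn3, Myh1 and Myh7 high relative to Acta1.

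**Figure D3:**
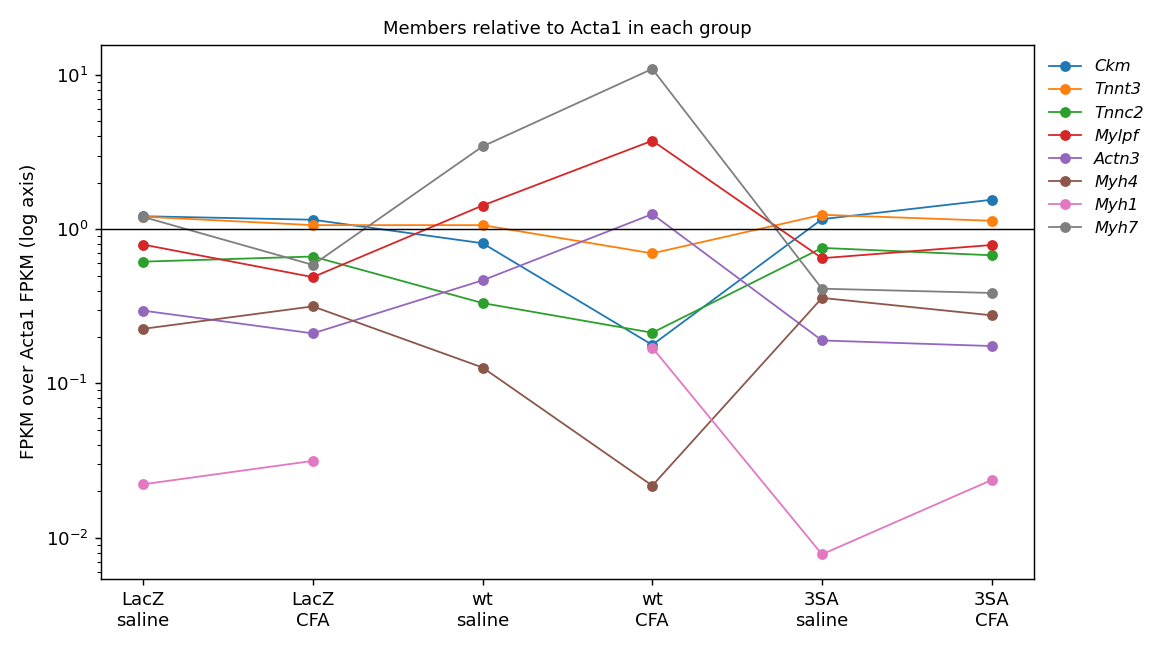
FPKM of each gene divided by that of Acta1 (log axis) in the 6 groups, with 1 value per group and a break where Myh1 was listed at 0. Tnnt3 kept near 1 (0.697 to 1.24), whereas the ratio of Myh7 rose to 11.0 in HDAC4 wt CFA and fell to 0.386 in HDAC4 3SA CFA.

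A straight line on the FPKM scale allows each gene a level that is present when Acta1 is at 0. Over the 6 groups, the line on Acta1 held 99.3% of the variation of Tnnc2, 99.0% of that of Tnnt3, 97.4% of that of both Myh4 and Actn3, 95.0% of that of Ckm and 89.2% of that of Mylpf, but only 39.4% of that of the fast motor Myh1. The level at which the line met 0 FPKM of Acta1 was 0.482 FPKM for Actn3, 1.13 for Mylpf and 4.63 for Myh7, and lay below 0 for Ckm, Tnnt3, Tnnc2 and Myh4. For Myh7 the line held 1.06% of the variation, with a slope of 0.0125 FPKM per FPKM of Acta1, compared with 0.760 for Tnnc2 and 1.20 for Tnnt3. The lines were drawn after the values were seen and rest on 6 points, of which pairs share a table.

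The members were set beside other fast and slow fibre genes in fixed lists, which include the members. Of the 14 genes of the fast fibre list, 13 had a row, and their summed FPKM was 21.7, 42.8, 10.5, 7.32, 67.9 and 56.6. After CFA in LacZ, 11 reached a mean of 0.5 FPKM, all 11 were above the saline value and 4 were called higher, beside 1.32% of loci: the members Myh4 and Tnnc2, the troponin I gene Tnni2 and the calcium pump Atp2a1. Without the members, 2 of 6 were called higher, and their median was 0.70 on the log2 scale. In HDAC4 wt 1 of 7 was called lower, the member Tnnt3, beside 1.88% of loci, with a list median of -0.01. Without the members, 0 of 4 were called in HDAC4 wt, 3 of the 4 were above the saline value and the median was 0.11. Atp2a1 (0.341 to 0.0391 FPKM) and Myl1 (0.734 to 0.111 FPKM), both lower after CFA in HDAC4 wt, did not reach the minimum mean there. In HDAC4 3SA 11 of 12 were below the saline value and none was called, beside 3.94% of loci higher and 1.67% lower.

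Among the fast genes that are no member, Atp2a1 was at 1.06, 3.04, 0.341, 0.0391, 4.60 and 3.27 FPKM, in the order of Acta1. Tnni2, the inhibitory subunit of fast troponin, was at 1.92, 4.98, 1.95, 2.08, 9.21 and 10.2 FPKM. Unlike the other fast troponin genes, it was not lower in HDAC4 wt than in LacZ saline.

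The slow fibre list summed to 15.1, 16.0, 21.9, 23.0, 20.8 and 25.0 FPKM over 10 genes, led by Tnni1, Myh7 and Tnnc1, and did not follow the fast list. Tnni1, the slow troponin I, was at 5.55, 6.35, 11.5, 14.0, 9.97 and 12.6 FPKM. None of 6 slow genes in LacZ, beside 1.32% of loci higher and 1.3% lower, and none of 5 in HDAC4 wt, beside 2.86% and 1.88%, was called after CFA, which at these shares does not set the slow list apart. In HDAC4 3SA 2 of 6 were called higher, beside 3.94% of loci, namely Myl2 (1.01 to 2.22 FPKM) and Myl3 (0.200 to 0.979 FPKM), the light chains of the slow and cardiac thick filament. Myl3 reached the minimum mean only through the CFA group.

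Ratios of fast to slow counterparts give the same comparison within a group. Tnnt3 over Tnnt1 was 11.5, 20.9, 5.92, 0.575, 44.7 and 19.7. Tnnc2 over Tnnc1 ran from 0.0456 in HDAC4 wt CFA to 4.01 in HDAC4 3SA saline, and Myh4 over Myh7 from 0.00198 to 0.871 in the same groups. Myl1 over Myl3 ran from 0.359 to 43.2, also in these groups, with Myl3 at no more than 0.979 FPKM in any group. Tnni2 over Tnni1 ran from 0.149 to 0.923 and Mylpf over Myl2 from 3.32 to 8.04. Actn3 over Actn2, a gene listed here for both fibre types, ran from 0.331 to 1.65. The Tnni2, Mylpf and Actn3 ratios spanned less than the others.

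Genes that both fibre types use gave a mixed picture. Over 20 genes read, the list summed to 66.6, 84.4, 55.9, 61.6, 94.0 and 97.6 FPKM, of which Pygm, the glycogen phosphorylase of muscle that was also at 37.9 to 48.7 FPKM in every group, held the largest share. In LacZ 3 of 8 were called higher after CFA, Acta1, Ckm and Tcap, beside 1.32% of loci, and in HDAC4 wt 2 of 9 were called lower, Acta1 and Ckm, beside 1.88%. Without the members Acta1 and Ckm, 1 of 6 was called higher in LacZ and 0 of 7 lower in HDAC4 wt. Tcap (0.370 to 1.20 FPKM) reached the minimum mean only through LacZ CFA, and Acta1 and Ckm only through HDAC4 wt saline. None of 13 was called in HDAC4 3SA, beside 3.94% of loci higher and 1.67% lower. Myom2, a protein of the M-band, was listed at 0 in LacZ saline and in both HDAC4 wt groups, and was at 0.485 FPKM in LacZ CFA and at 4.66 and 5.99 in the HDAC4 3SA groups.

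The lists for excitation coupling, with Jph1, Chrnb1 and Jsrp1 at the top, and for cardiac and developmental isoforms, with Tnnt2, Myl4 and Myh6, had no gene called after CFA in any vector, beside shares of 1.3% to 3.94% of loci, and with 3 to 6 genes at the minimum level this says little about the lists. Their sums varied by 1.10-fold and 1.27-fold over the groups. None of the 7 myogenic regulators had a row that could be read in all 3 tables. The smooth muscle list, led by Myl9, Acta2 and Myh11, varied by 1.52-fold, and the non-muscle counterparts, led by Ckb, Actb and Actg1, by 1.12-fold. Both folds are narrower than that of the fast list, which includes members chosen by their levels in these data.

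Screening 1732 single-row genes that reached 1 FPKM and varied by at least 1 on the log2 scale, the 20 most like Acta1 (itself included) held 7 members, 5 other genes of the muscle lists and 8 further genes. The list genes were Atp2a1 (Pearson r = 0.999 over 6 groups), Myl1, Tcap, Myoz1 and Mybpc2. Of the 8 further genes, the most alike was A930016O22Rik (r = 0.988), which lies in the place of Ckm on the opposite strand, followed by Car3 (r = 0.965), Gm19710 (r = 0.962), Cox8b (r = 0.958), Gm8492 (r = 0.931), Nrg4 (r = 0.927), D10Wsu102e (r = 0.912) and Brip1 (r = 0.905). Kcnq1ot1 (r = 0.881) and 6430584L05Rik (r = 0.879) came next, outside the first 20. For the members' mean profile, the 5 most alike outside the lists were A930016O22Rik (r = 0.989), Car3 (r = 0.973), Cox8b (r = 0.967), Gm19710 (r = 0.959) and Gm8492 (r = 0.924). Car3, the carbonic anhydrase abundant in muscle, was at 1.88, 2.41, 1.22, 1.14, 2.75 and 2.25 FPKM. Cox8b, a muscle form of a cytochrome oxidase subunit, was at 1.51, 2.14, 0.713, 0.566, 1.92 and 2.52 FPKM. Brip1 was at 6.66 and 6.71 FPKM in LacZ, 0.343 and 0.334 in HDAC4 wt and 7.56 and 5.14 in HDAC4 3SA, so HDAC4 wt stood apart from the other vectors. As each vector has a table of its own, vector and table cannot be told apart. The correlations are a description, since the 6 points share 3 tables and many genes were screened.

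Markers of other tissues near the cord were read in the same groups, and their part in the muscle values was not tested. The Schwann cell list, led by Prx, Drp2 and Ncmap, summed to 90.8, 143, 100.4, 96.2, 125 and 81.1 FPKM over the 6 genes read. All 6 were above the saline value in LacZ CFA and all 6 below it in HDAC4 3SA CFA, with median log2 fold changes of 0.64, -0.05 and -0.45 in LacZ, HDAC4 wt and HDAC4 3SA and none called. The fast fibre sum had the same directions in LacZ (21.7 to 42.8 FPKM) and HDAC4 3SA (67.9 to 56.6 FPKM), and both sums were higher in HDAC4 3SA saline than in LacZ saline and lower in HDAC4 wt CFA than in LacZ CFA. In HDAC4 wt saline the Schwann cell sum was above and the fast fibre sum below that of LacZ saline. In HDAC4 3SA CFA the Schwann cell sum was below that of LacZ CFA (81.1 against 143 FPKM), whereas the fast fibre sum was above it (56.6 against 42.8 FPKM). The red blood cell list, with Hbb-bs and Alas2 read, summed to 141, 260, 187, 203, 347 and 394 FPKM, with the HDAC4 3SA groups highest. Tendon and fibrous tissue genes, led by Col1a2, Col1a1 and Fmod, summed to 68.5 to 119, with HDAC4 wt CFA highest. Bone genes, led by Bglap2, Dmp1 and Phex, summed to 6.12 to 10.5, also with HDAC4 wt CFA highest. That order rests on Bglap2, listed at 0 in both LacZ groups and at 5.38 and 5.92 FPKM in HDAC4 wt. The other bone genes read, Dmp1, Sp7 and Phex, were each highest in a LacZ group. Fat genes, led by Thrsp, Plin1 and Fabp4, summed to 16.9 to 24.8. Among these lists the calls after CFA were 1 of 8 tendon genes in HDAC4 wt, beside 2.86% of loci, namely Comp, which reached the mean only through CFA (0.278 to 3.85 FPKM), and 1 of 3 fat genes in HDAC4 3SA, beside 3.94%, namely Fabp4 (1.002 to 3.14 FPKM).

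**Figure D4:**
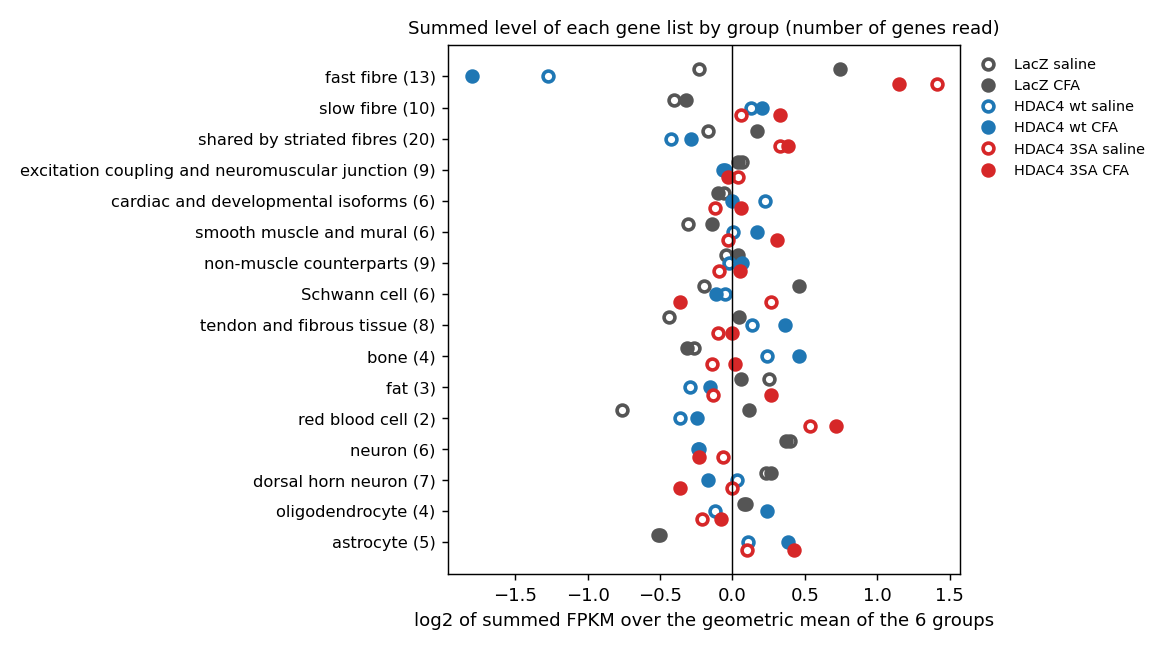
Summed FPKM of each gene list in each group as the log2 ratio to the geometric mean of the 6 groups, with the number of genes read in parentheses; open points are saline, filled points CFA, and colours mark the vectors. The fast fibre list spans 7.32 to 67.9 FPKM, or 9.29-fold, with both HDAC4 wt groups lowest, whereas the slow fibre list spans 15.1 to 25.0. The fold of the fast list is the widest shown, but that list includes members chosen by their levels in these data.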

How the data were processed

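RNA of 18 mice was sequenced by the authors on an Illumina instrument as 50 bp single-end reads. They used Bowtie, TopHat, Cufflinks, Cuffmerge and Cuffdiff with GRCm38 and Ensembl annotation (per the methods and the labels' processing notes), and deposited 1 Cuffdiff table of 34579 loci per vector. The deposited values are FPKM, 1 per group and locus, with 3 mice behind each. The authors' own log2 fold changes, test statistics (a score), p-values and q-values fill the remaining columns of the deposited tables and were not used. The methods state a minimum number of reads but not the number in each library, and the precision of a value is not known.

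Rows were matched by gene name and place. Of the identifiers, 386 differed in name or place between tables and were left out. Of 152 genes in 17 lists, 118 could be read, and the levels of the others were not analysed here. Some further list genes are not reported here. Members, lists and comparisons were chosen with earlier results of these data known. With 1 value per group no test was computed from the values, as the design foresaw. Loci were called at 2-fold with 0.1 FPKM added and a mean of at least 0.5 FPKM. The common pattern is the first singular vector of centred log2(FPKM + 0.1). The text names all members, the 3 highest genes of each list, genes behind counts of 5 or fewer, and, outside the lists, the 10 genes most like Acta1 and the 5 most like the members' mean profile. Scripts were tested on simulated data and ran in Python 3.11.15 with NumPy 2.4.6 and pandas 2.3.3. Start coordinates are counted from 1, exons are from GENCODE M21, and promoters from RefSeq.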

Additional observations from a re-analysis of the deposited data

Results flagged for a closer look

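The change after CFA had opposite directions in a pair of vectors for 8 members in HDAC4 wt and LacZ, for 7 in HDAC4 3SA and LacZ and for 1 in HDAC4 3SA and HDAC4 wt. Each value is the difference between a pair of log2 fold changes, and none of the differences was tested, because the tables hold 1 value per group. For HDAC4 wt minus LacZ the difference was -3.13 for Acta1, -5.25 for Ckm, -6.16 for Myh4, -0.43 for Myh7, -1.04 for Mylpf, -3.56 for Tnnt3, -3.88 for Tnnc2 and -1.22 for Actn3. For HDAC4 3SA minus LacZ it was -1.54 for Acta1, -2.40 for Myh4, -0.60 for Myh7, -0.56 for Mylpf, -1.49 for Tnnt3, -1.81 for Tnnc2 and -1.17 for Actn3. For HDAC4 3SA minus HDAC4 wt it was 4.20 for Ckm. Myh7, the slow motor, had the smallest of the differences against LacZ in HDAC4 wt, and Mylpf had the smallest in HDAC4 3SA.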

How the results depend on the processing

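No paired analysis was possible because each group has 1 pooled value, and for the same reason no mouse could be left out. A minimum depth is stated but none per library, and the values behind the folds of HDAC4 wt CFA are close to 0. Of 234 recomputed log2 fold changes of single members, each with FPKM added or centred, 44 moved by over 1.5-fold. That 0 changed direction is no support, because adding the same FPKM to both values cannot change it and the centring was small. The median log2 fold change after CFA in HDAC4 wt, -2.25, became -1.42 and -0.35 with 0.1 and 1 FPKM added, and -1.25 and -0.42 over the members whose mean reached 0.5 and 1 FPKM. With 1 FPKM added the median became -0.67 for HDAC4 wt over LacZ in saline (from -1.49) and -1.92 in CFA (from -4.53), and 2.20 for HDAC4 3SA over HDAC4 wt in saline (from 3.18) and 1.87 in CFA (from 4.65). Scaling to equal summed FPKM turned HDAC4 3SA over LacZ in CFA from 0.12 to -0.10. The median log2 range of the ratio to Acta1, 3.03, was 4.38 with Ckm as the reference. After CFA in LacZ, the 4 fast fibre genes called higher became 8 at 1.5-fold and 0 at 3-fold, and the 3 genes of both fibre types became 1 with 1 FPKM added, 6 without a minimum level and 0 at 3-fold. In HDAC4 wt, the 1 fast gene called lower became 5 without a minimum and 0 at a mean of 1 FPKM, and the 2 genes of both fibre types became 1 with 1 FPKM added and 0 at a mean of 1 FPKM. Settings added after the data were seen leave out Myh7 or the HDAC4 wt groups, or weight the members equally.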

Other observations

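The following genes were singled out after their values were seen. Of the slow fibre and cardiac lists, the genes Myl2, Myl3, Actc1, Csrp3, Tnnt1, Tnnc1, Myh6 and Myl4 were higher in HDAC4 3SA CFA than in any other group. The other genes read peaked elsewhere: Tnni1, Casq2, Tnni3 and Myh3 in HDAC4 wt CFA, Myoz2 and Tnnt2 in HDAC4 wt saline, Myh7b in LacZ saline and Myh7 in LacZ CFA. Myl2, the slow and cardiac regulatory light chain, was at 2.22 FPKM in HDAC4 3SA CFA and at 0.432 to 1.01 elsewhere, and Myl3 was at 0.979 against 0.128 to 0.310. Actc1, cardiac alpha-actin, was at 0.751 FPKM in that group and at 0.0179 to 0.136 elsewhere, and Csrp3, a protein of the Z-disc, was at 0.330 FPKM in it and at most 0.0572 elsewhere. In HDAC4 3SA CFA Myh7 and Tnnt2 were at their lowest, 3.76 and 2.99 FPKM. The ratio of Acta1 to Actc1 ran from 302 in LacZ CFA to 13.0 in HDAC4 3SA CFA and 9.24 in HDAC4 wt CFA, where Acta1 was low.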
